A study of Mus musculus with 2 samples.

Results

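Cyclins A, B and E, the kinases CDK1 and CDK2 that they switch on, and the CDC25 phosphatases that release those kinases were followed in RNA from germinal centre B cells, the dividing B cells that form in a spleen after immunization. The 10 genes (Ccna2, Ccnb1, Ccnb2, Ccne1, Ccne2, Cdk1, Cdk2, Cdc25a, Cdc25b and Cdc25c) were taken by symbol from a deposited table of 41214 mouse genes, in which each symbol had 1 row. The C57BL/6 mice had been immunized by intravenous injection of 1000000000 sheep red blood cells, and on day 10 spleen cells that carried B220, Fas and GL7 and lacked CD138 were sorted. One library came from mice labelled Cbl-/-Cblb-/-, that is, as lacking the genes of a pair of E3 ubiquitin ligases that restrain B cell receptor signalling, and 1 from mice labelled wild type. The labels do not give the kind of deletion, the age of the mice or the number of animals behind a library. With 1 library per genotype no difference has a replicate check, so no test was run, and every interval below is a 95% interval for counting error only.

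Progress through the cell cycle is driven by cyclin-dependent kinases, which are inactive without a cyclin. E-type cyclins bind CDK2 when cells commit to DNA replication, cyclin A2 binds CDK2 during replication and CDK1 later, and B-type cyclins bind CDK1 to start mitosis. The kinases WEE1 and MYT1 hold these complexes in check with phosphate groups that the CDC25 phosphatases remove, and ubiquitin ligases destroy cyclins and CDC25A on schedule. Germinal centre B cells cycle fast, mainly in the dark zone. In RNA from a bulk sort, fewer cells in a phase of the cycle and less RNA per cell cannot be told apart.

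Reads counted to the 41214 genes summed to 38223328 (labelled Cbl-/-Cblb-/-) and 26749540 (labelled wild type), and these sums are the total reads used below. Of the genes, 10443 reached a floor of 100 normalized reads (reads divided by the authors' size factor of the library) in whichever library was higher. Neither targeted gene was low where it should be missing: Cbl had 1183 normalized reads against 169 and Cblb 2839 against 1001, each higher in the Cbl-/-Cblb-/- labelled library. Each value covers a whole gene and so takes in any exons that the alleles leave. Directions are therefore given between labelled libraries, not genotypes. The log2 ratio between the libraries depended on gene length, with 0.61 more for each doubling of length along a straight line, and scaling to total reads in place of the authors' factors would add 0.52 to every log2 ratio. All 10 B cell and germinal centre markers were over 100 normalized reads, with summed levels of 248121 in the Cbl-/-Cblb-/- labelled library and 383886 in the wild type labelled library. Of these 10, 2 were higher by 2-fold or more and 2 lower. Single genes weighed heavily on these sums: Cd79b had 32213 and 177690 normalized reads, and Ptprc, 17763 bases long, had 45013 and 8799. Without Cd79b, an omission that was not planned, the sums were 215908 and 206196. Of 7 T cell markers only Lck was over that floor, and the other 6 had 0 to 15 reads. The 6 myeloid markers in the table summed to 1109 and 1486 normalized reads, and of the 4 over the floor 1 was higher by 2-fold or more and 2 were lower. The 6 erythroid markers summed to 62.2 and 688, and the only 1 over the floor was Hbb-bt, with 30.8 and 594. Plasma cell markers (6 in the table, 5 over the floor) summed to 35925 and 43477, with 1 higher and 1 lower. Of 6 naive B cell markers over the floor 4 were at least 2-fold higher and 0 lower in the Cbl-/-Cblb-/- labelled library, with sums of 12608 and 10085. These counts stand against 27.8% of all genes over the floor at least 2-fold higher and 23.3% lower. With the line on length removed the shares were 17.9% and 21.7%. By that measure 1 B cell and germinal centre marker was higher and 1 lower, and 1 myeloid marker was higher and 0 lower. Plasma cell markers then had 0 in either direction, and naive B cell markers 4 higher and 0 lower. The part of these cells in the values below was not tested.

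The promoters of 5 of the 10 genes are printed as examples. They were searched for short motifs through which cell cycle genes are known to be timed. These are CCAAT boxes, which bind NF-Y, and the cell cycle homology region (TTTGAA or TTTAAA), which binds the MuvB complex. E2F sites were searched as TTTCGCGC, TTTGGCGC and TTTCCCGC. Ccne1 held 1 TTTAAA and no CCAAT or E2F match. The promoters of Cdc25a and Cdc25b also held matches and are not printed. Each line gives the 250 bases that end at the RefSeq start of the gene (GRCm38.p6), 5′ to 3′ along the gene, and capitals mark matches on either strand. The regions are chr13:100786487-100786736 for Ccnb1, chr9:70421555-70421804 for Ccnb2, chr10:69352913-69353162 for Cdk1, chr10:128705052-128705301 for Cdk2 and chr7:38107491-38107740 for Ccne1, all on the minus strand.
Ccnb1: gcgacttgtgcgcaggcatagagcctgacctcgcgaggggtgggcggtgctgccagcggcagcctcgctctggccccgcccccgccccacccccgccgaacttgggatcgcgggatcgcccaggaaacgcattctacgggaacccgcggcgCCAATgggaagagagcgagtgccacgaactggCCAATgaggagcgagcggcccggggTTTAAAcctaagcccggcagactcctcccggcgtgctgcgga
Ccnb2: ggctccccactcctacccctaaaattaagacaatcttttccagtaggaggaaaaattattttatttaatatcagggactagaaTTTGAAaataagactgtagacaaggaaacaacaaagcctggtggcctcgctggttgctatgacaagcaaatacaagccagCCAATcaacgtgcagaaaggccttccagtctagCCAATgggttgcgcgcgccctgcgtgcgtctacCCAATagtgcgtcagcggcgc
Cdk1: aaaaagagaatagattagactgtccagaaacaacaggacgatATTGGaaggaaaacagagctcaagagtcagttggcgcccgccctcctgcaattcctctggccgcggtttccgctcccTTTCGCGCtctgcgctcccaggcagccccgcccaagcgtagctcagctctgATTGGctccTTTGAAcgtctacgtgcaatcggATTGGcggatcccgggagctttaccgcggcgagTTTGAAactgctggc
Cdk2: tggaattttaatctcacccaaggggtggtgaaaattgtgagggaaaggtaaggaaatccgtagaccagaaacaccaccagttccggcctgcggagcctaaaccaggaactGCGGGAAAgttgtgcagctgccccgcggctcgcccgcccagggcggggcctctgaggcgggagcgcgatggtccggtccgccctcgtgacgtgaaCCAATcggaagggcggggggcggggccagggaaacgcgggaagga
Ccne1: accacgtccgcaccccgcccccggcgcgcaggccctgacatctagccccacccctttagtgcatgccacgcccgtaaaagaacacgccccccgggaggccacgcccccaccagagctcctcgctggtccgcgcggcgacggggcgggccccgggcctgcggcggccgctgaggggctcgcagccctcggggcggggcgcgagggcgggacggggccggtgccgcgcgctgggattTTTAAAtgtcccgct

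RefSeq promoters were matched for 7 of the 10 genes. CCAAT stood in 6 of the 7, against 33.8% of all 32851 promoters in the table, and 4 of the 7 held 2 or more copies, against 10.1%. Ccnb2 and Cdk1 held 3 copies each, and Ccnb1 and Cdc25a 2 each. Copies of CCAAT together with TTTGAA or TTTAAA stood in Ccnb1, Ccnb2 and Cdk1, a combination (2 or more CCAAT) present in 2.36% of all promoters. The count ignored order and spacing. In Ccnb1 and Cdk1 a TTTAAA or TTTGAA lay nearer the start than every CCAAT copy. In Ccnb2 the TTTGAA, 167 to 162 bases before the start, lay upstream of all 3 CCAAT copies, the farthest of which began at 87. TTTGAA was present in 16.0% and TTTAAA in 12.1% of all promoters, and the E2F letters in 1.53%. The E2F letters stood in Cdk1, Cdk2 and Cdc25a, and no matches overlapped one another. A match is a run of letters and not a measured binding site.

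At the authors' scaling 9 of 10 differed by less than 2-fold, against 49.0% of the 10443 genes over the floor. Ccne2 was the exception: 1 of 10 was at least 2-fold higher in the Cbl-/-Cblb-/- labelled library, where the background was 27.8%, and 0 of 10 were at least 2-fold lower, where it was 23.3%. Scaled to total reads 3 of 10 (Ccne2, Cdk2 and Cdc25a) were at least 2-fold higher, against 41.2% of all genes, and the median log2 ratio was 0.84. Among the 4573 genes within the same range of length (1541 to 4217 bases) the shares were 16.7% higher, 25.0% lower and 58.2% within 2-fold. The median log2 ratio of the 10 genes was 0.32, against 0.15 for all genes over the floor and -0.21 for genes in that range of length. Ratios above 0 were found for 7 of the 10 at the authors' scaling, against 53.9% of all genes over the floor. Scaling to total reads, which adds 0.52 to every log2 ratio, put 10 of 10 above 0. The share of all genes above 0 at that scaling was not computed.

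**Figure D1:**
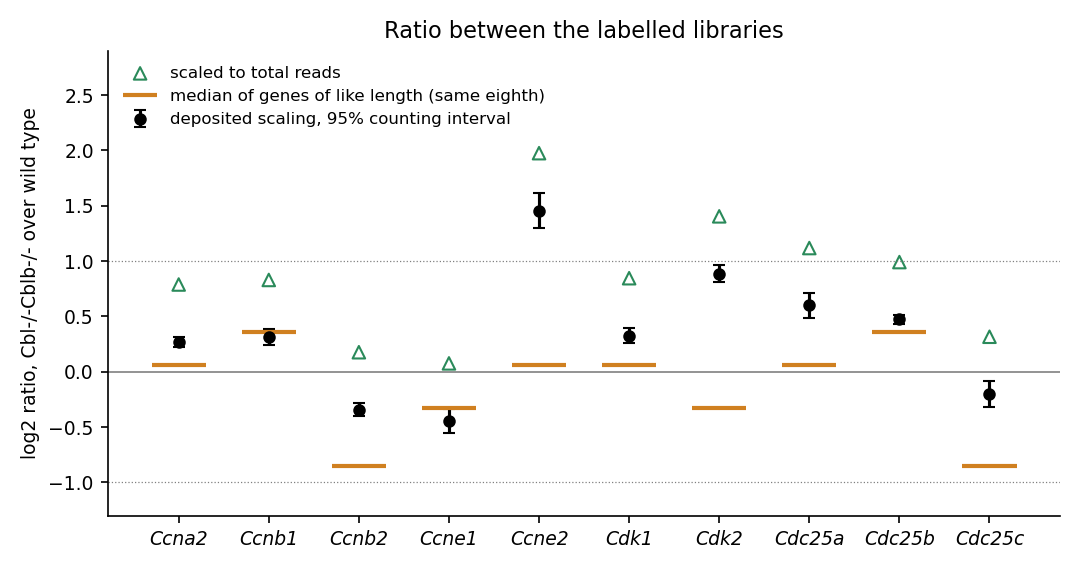
Log2 ratio of each gene, Cbl-/-Cblb-/- labelled library over wild type labelled library. Black points use the authors' scaling with 95% counting intervals, green triangles the scaling to total reads, and orange bars are the median of all genes in the same eighth by length. Ccne2 stands at 1.45, above the dotted line at 2-fold, and Ccne1, Ccnb2 and Cdc25c lie below 0 at the authors' scaling and above 0 when scaled to total reads.

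The E-type cyclins went apart. Ccne2 (ENSMUSG00000028212, chromosome 4, 11191351 to 11204779 on the plus strand of GRCm38) had 2095 reads in the Cbl-/-Cblb-/- labelled library and 373 in the wild type labelled library, or 1464 against 534 after normalization. It was 2.74-fold higher (2.46 to 3.07) in the former, at percentile 82.1 of all genes over the floor and 89.2 of genes in its eighth by length. Ccne1 (ENSMUSG00000002068, chromosome 7, 38097984 to 38107534, minus strand), the paralog with the same partner kinase, had 1747 and 1160 reads, or 1221 against 1660 normalized. It was 1.36-fold lower (1.26 to 1.46) in the Cbl-/-Cblb-/- labelled library at the authors' scaling, and its log2 ratio of -0.44 became 0.08 when scaled to total reads.

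Scaling cancels when the paralogs are compared within a library. Ccne2 supplied 54.5% of the reads of the pair in the Cbl-/-Cblb-/- labelled library and 24.3% in the wild type labelled library, so that the ratio of Ccne2 to Ccne1 was 3.73-fold higher (3.26 to 4.27) in the former. Per kb of length the ratio was 0.913 against 0.245, so Ccne1 was the more abundant in each library. Ccne2 is the longer gene (3495 against 2662 bases), and the log2 ratio of ratios of 1.90 was 1.66 after the line on length was removed from each gene.

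Cdk2 (ENSMUSG00000025358, chromosome 10, 128697939 to 128705031, minus strand), the kinase of the E-type cyclins, had 6584 and 1741 reads. Normalized to 4602 and 2491, it was 1.85-fold higher (1.75 to 1.95) in the Cbl-/-Cblb-/- labelled library, the second highest ratio of the 10. Genes of its length (2189 to 2894 bases) had a median log2 ratio of -0.33 against 0.89 for Cdk2, which placed it at percentile 85.1 of that eighth. With the line on length removed Cdk2 stood at 1.03 and Ccne2 at 1.28 on the log2 scale, and these were the only 2 of the 10 at or past 2-fold, where 17.9% of all genes were as high. None of the 10 was 2-fold lower by that measure, against 21.7% of all genes. Against Cdk2 within the same library, Ccne2 was 1.49-fold higher (1.31 to 1.68) and Ccne1 2.51-fold lower (2.29 to 2.75) in the Cbl-/-Cblb-/- labelled library.

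**Figure D2:**
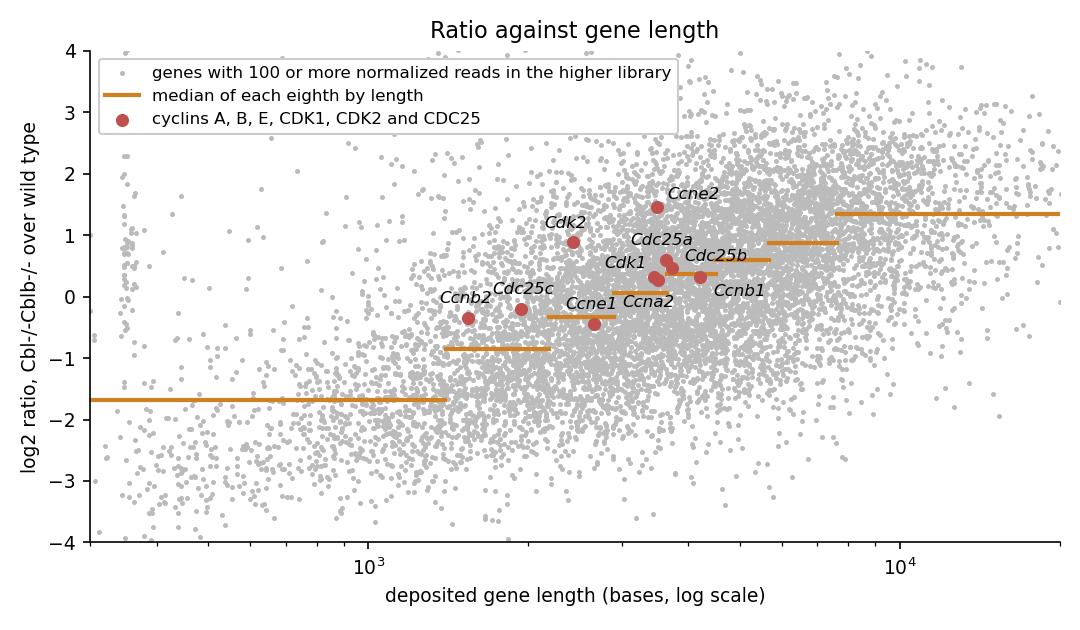
Log2 ratio (Cbl-/-Cblb-/- labelled library over wild type labelled library) against deposited gene length on a log axis. Grey points are the genes over the floor (236 lie outside the plotted range), orange bars the median of each eighth by length and red points the 10 genes. Ccne2 and Cdk2 lie farthest above the bar of their length, by 1.39 and 1.21.

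The mitotic kinase and its partners had smaller differences. Cdk1 (ENSMUSG00000019942, chromosome 10, 69335146 to 69352938, minus strand) had 5966 and 2324 reads, or 4170 against 3325 normalized, and was 1.25-fold higher (1.20 to 1.32) in the Cbl-/-Cblb-/- labelled library. Ccna2 (ENSMUSG00000027715, chromosome 3, 36564865 to 36572150, minus strand), which encodes the cyclin of replication and of the approach to mitosis, had 13842 and 5609 reads, or 9675 against 8025 normalized, and was 1.21-fold higher (1.17 to 1.24). Ccnb1 (ENSMUSG00000041431, chromosome 13, 100778650 to 100786570, minus strand), the cyclin essential for mitotic entry, had 5642 and 2222 reads, or 3944 against 3179 normalized. It was 1.24-fold higher (1.18 to 1.30) at the authors' scaling, and its log2 ratio adjusted for deposited length was -0.03. These 3 genes had close log2 ratios, from 0.27 to 0.33, and lay at percentiles 48.0 to 59.2 of their eighths by length.

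Ccnb2 (ENSMUSG00000032218, chromosome 9, 70407692 to 70421547, minus strand), the B-type cyclin that mice can lack without loss of viability, had 6077 and 3763 reads, or 4248 against 5384 normalized. It was 1.27-fold lower (1.22 to 1.32) in the Cbl-/-Cblb-/- labelled library at the authors' scaling, while its log2 ratio of -0.34 became 0.18 when scaled to total reads and 0.21 with the line on length removed. Ccnb2 is the shortest of the 10 genes at 1541 bases, and genes of 1398 to 2185 bases had a median of -0.85.

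Ccna2 and Ccnb1 had nearly the same ratio to Cdk1 in each library. The ratio of Ccnb1 to Cdk1 reads in the Cbl-/-Cblb-/- labelled library was 0.989 times that in the wild type labelled library (0.923 to 1.06), and the ratio of Ccna2 to Cdk1 was 0.961 times (0.908 to 1.02), so that each interval held 1. Those intervals bound a change of either ratio by counting error alone, not by the spread between mice. Ccnb2 relative to Cdk1 was 0.629 times (0.590 to 0.670), but with the line on length removed from each gene the log2 difference between Ccnb2 and Cdk1 was 0.04. Ccnb1 relative to Ccnb2 was 1.57-fold higher (1.47 to 1.68), with a log2 difference of -0.23 once deposited length was removed. The direction thus turned with an adjustment that takes Ccnb1 as 4217 bases long. Its principal transcript in GENCODE M21 has 2489 bases, and the adjustment was not run with that length. Cdk2 relative to Cdk1 was 1.47-fold higher (1.37 to 1.58) in the Cbl-/-Cblb-/- labelled library, and 0.87 on the log2 scale after adjustment for deposited length.

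**Figure D3:**
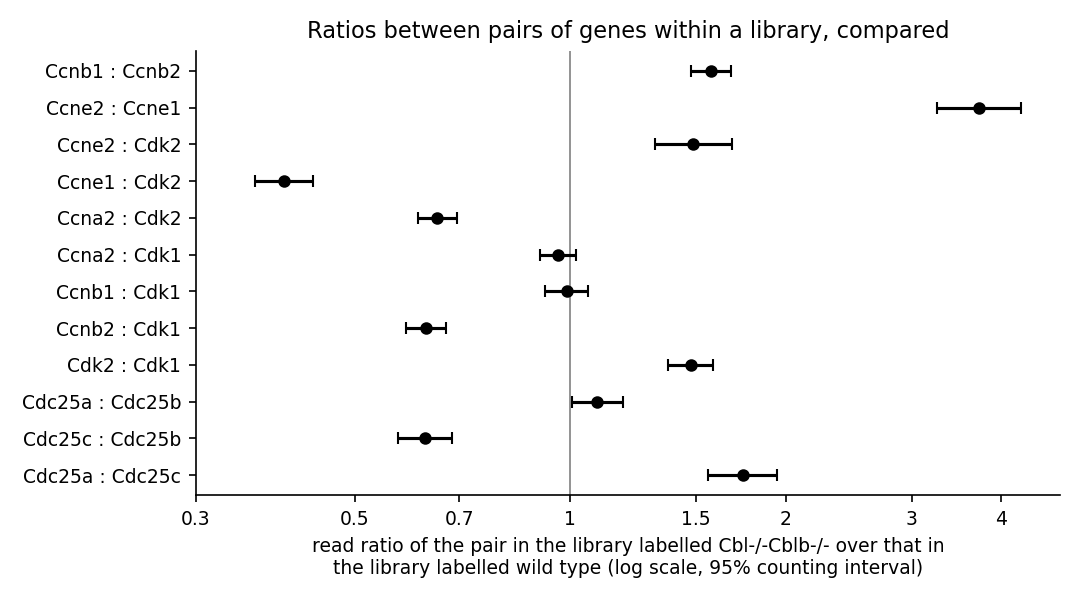
For 12 pairs of genes, the ratio of reads of the first gene to the second in the Cbl-/-Cblb-/- labelled library divided by the same ratio in the wild type labelled library, on a log axis with exact 95% counting intervals. Library scaling cancels in these values. Ccne2 : Ccne1 lies farthest from 1, at 3.73, and Ccna2 : Cdk1 and Ccnb1 : Cdk1 have intervals that hold 1.

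Among the phosphatases, Cdc25b (ENSMUSG00000027330, chromosome 2, 131186949 to 131198497, plus strand), which acts at the onset of mitosis, was the most abundant by reads in each library. It had 16769 and 5905 reads, or 11721 against 8448 normalized, and was 1.39-fold higher (1.35 to 1.43) in the Cbl-/-Cblb-/- labelled library. Cdc25a (ENSMUSG00000032477, chromosome 9, 109875579 to 109893895, plus strand), which acts both at the start of replication and at mitosis, had 2744 and 885 reads, or 1918 against 1266 normalized, and was 1.51-fold higher (0.60, with an interval of 0.49 to 0.71, on the log2 scale). Cdc25c (ENSMUSG00000044201, chromosome 18, 34732993 to 34751533, minus strand), an activator of CDK1, had 1692 and 951 reads, or 1183 against 1361 normalized. It was 1.15-fold lower (1.06 to 1.25) at the authors' scaling, with a log2 ratio of -0.20 that became 0.32 when scaled to total reads and 0.14 with the line on length removed.

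Cdc25a kept nearly the same ratio to Cdc25b in the libraries, 1.09-fold higher (1.01 to 1.19) in the one labelled Cbl-/-Cblb-/-. The ratio of Cdc25c to Cdc25b was 1.60-fold lower (1.46 to 1.74) there, but the log2 difference shrank from -0.67 to -0.10 with the line on length removed. Cdc25c is 1941 bases long and Cdc25b 3728.

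Levels of different genes are comparable only per length. In normalized reads per kb, the Cbl-/-Cblb-/- labelled library held Cdc25b at 3144, Ccna2 and Ccnb2 at 2756 each, Cdk2 at 1892, Cdk1 at 1210 and Ccnb1 at 935. Below these lay Cdc25c at 609, Cdc25a at 529, Ccne1 at 459 and Ccne2 at 419. Of the 9 neighbouring pairs in that order only Ccna2 and Ccnb2 had overlapping counting intervals. The wild type labelled library held Ccnb2 at 3494, Ccna2 at 2286, Cdc25b at 2266, Cdk2 at 1024 and Cdk1 at 965. Ccnb1 followed at 754, Cdc25c at 701, Ccne1 at 623, Cdc25a at 349 and Ccne2 at 153.

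In that library 4 of 9 neighbouring pairs had overlapping intervals: Ccna2 with Cdc25b, Cdk2 with Cdk1, Ccnb1 with Cdc25c and Cdc25c with Ccne1. Ccne2 was the lowest of the 10 in each library. The highest gene stood 7.50-fold above the lowest in the Cbl-/-Cblb-/- labelled library and 22.9-fold in the wild type labelled library. The order depends on the length used. Divided by the principal transcript of GENCODE M21, which is 2489 bases for Ccnb1 (4217 deposited) and 4375 for Cdk1 (3445 deposited), Ccnb1 stood above Cdk1 in each library, at 1584 against 953 and at 1277 against 760, whereas by deposited length Cdk1 was the higher.

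**Figure D4:**
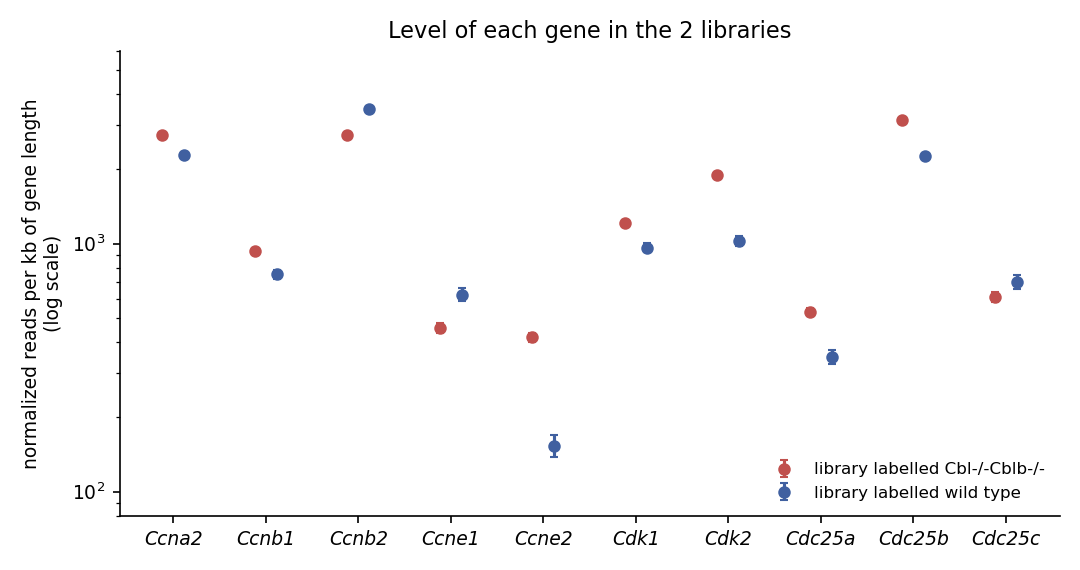
Normalized reads per kb of deposited gene length on a log axis for each gene in the Cbl-/-Cblb-/- labelled library (red) and the wild type labelled library (blue), with exact Poisson 95% intervals that are often smaller than the points. Ccne2, at 419 and 153, is the lowest in each library and has the widest gap between them.

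Exons of another gene overlapped 5 of the 10 genes in GENCODE M21, each on the other strand, and no source used here says whether the counting used strand, which leaves the origin of reads in the shared bases uncertain. Ccne2 shares 609 bases with Ints8, which had 2618 and 760 reads, so that Ints8 was also the higher in the Cbl-/-Cblb-/- labelled library. Ccna2 shares 510 bases with Exosc9 (2426 and 1652 reads), Cdc25c 623 with Gm3550 (13 and 86 reads), Cdc25b 92 with Spef1 (768 and 1204 reads) and Cdk2 34 with Pmel (40 and 34 reads). The part of the overlap in these ratios was not tested. Related pseudogenes took few reads: Ccnb2-ps had 8 and 3, and Gm5593 had 12 and 0. The germline cyclin genes Ccna1 and Ccnb3 had 0 reads in each library, which allows up to 3.

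Ratios of genes that act on these kinases ran from -2.47 to 4.15, against -0.44 to 1.45 for the 10 cyclin, CDK and CDC25 genes. The counts of the lists below stand against the 27.8% of all genes at least 2-fold higher and 23.3% lower, or 17.9% and 21.7% with the line on length removed. Among inhibitory kinases and CDK inhibitors 4 of 6 passed the floor, with 2 higher by 2-fold or more and 1 lower in the Cbl-/-Cblb-/- labelled library, with a median log2 ratio of 1.47. Wee1, whose kinase puts the inhibitory phosphate on CDK1 and CDK2, had 1551 reads against 116 and was 6.53-fold higher (5.41 to 7.96). Pkmyt1, which encodes the related membrane-bound kinase MYT1, had 3079 against 4134 and stood at -1.46 on the log2 scale (-0.94 when scaled to total reads). Cdkn1b, which encodes the inhibitor p27, was 5.58-fold higher (4.70 to 6.65), from 1655 and 145 reads.

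Of 10 upstream kinases and regulators of mitotic entry 5 were at least 2-fold higher and 1 lower, with a median of 0.79. Atm, the kinase of the double-strand break response, had the highest ratio at 4.15 and Mastl, which restrains the phosphatase that opposes CDK1, stood at 2.06. Arpp19, a substrate of Mastl, was at -2.32. With the line on length removed 3 were at least 2-fold higher and 1 lower.

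The 14 genes of ubiquitin ligases that act on cyclins and CDC25A, and of their partners and regulators, had 3 higher and 3 lower. Their median of -0.46 became 0.05 when scaled to total reads. With the line on length removed there were 2 higher, 5 lower and a median of -0.72. Most genes of the anaphase-promoting complex and its partners lay below 0 at the authors' scaling. They were the subunit genes Anapc11 (-2.47) and Anapc2 (-0.55), the ubiquitin-conjugating enzyme genes Ube2s (-2.44) and Ube2c (-1.11), Cdc20 (-0.56) and Fzr1 (-0.38). Scaled to total reads Fzr1 stood at 0.14, Anapc2 at -0.03 and Cdc20 at -0.05. The subunit gene Cdc27 was at 1.29 (0.61 with the line on length removed) and the regulator gene Fbxo5 at 0.08. Skp2, whose ligase degrades p27, stood at 1.97. Of 5 genes of the CDK-activating kinase and the CKS subunits 0 were past 2-fold in either direction, with a median of -0.57 (-0.05 when scaled to total reads). Their lowest values were those of Cks2 (-0.69), Cks1b (-0.66) and Mnat1 (-0.57), which stood at -0.17, -0.14 and -0.05 when scaled to total reads. With the line on length removed Cks2 was at 0.57, Cks1b at 0.17 and Mnat1 at -1.12, so that 1 of the 5 was then at least 2-fold lower.

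Transcription factors of the G2/M genes, among them subunits of NF-Y and MuvB, included 7 of 13 genes at least 2-fold higher and 2 lower, with a median of 1.33. With the line on length removed there were 5 higher, 2 lower and a median of 0.51. The MuvB subunit genes Lin9 (8.07-fold, 6.29 to 10.5) and Lin52 (6.97-fold, 5.26 to 9.42) and the pocket protein gene Rbl1 (7.05-fold, 6.42 to 7.75) were the highest, while the MuvB subunit gene Lin37 stood at -1.63 and the NF-Y subunit gene Nfyc at -1.37. Lin9 and Lin52 rested on 66 and 52 reads in the wild type labelled library. The other cell cycle cyclins and CDKs had 5 of 8 genes over the floor, 2 of them at least 2-fold higher and 1 lower (2 and 2 with the line on length removed), with a median of 0.36. Ccnd2 stood at 2.48 and Cdk6 at 1.91, against -1.01 for Ccnd3 (-0.49 when scaled to total reads).

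Of 15 proliferation markers 13 had ratios above 0 at the authors' scaling, against 53.9% of all genes over the floor. Of the 15, 4 were at least 2-fold higher and 2 lower, and the median was 0.40. With the line on length removed there were 1 higher, 2 lower and a median of 0.26. Cenpf (2.50), Top2a (1.60) and Hmmr (1.44) had the largest ratios, and these genes are long, at 11353, 9013 and 5431 bases. After the line on length was removed they stood at 1.30, 0.59 and 0.88. In the authors' deposited table, whose values rest on 1 library per genotype, the log2 fold changes of the 10 genes ran from -0.35 for Ccne1 to 1.11 for Ccne2, and their adjusted p-values from 0.944 to 0.977.

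**Figure D5:**
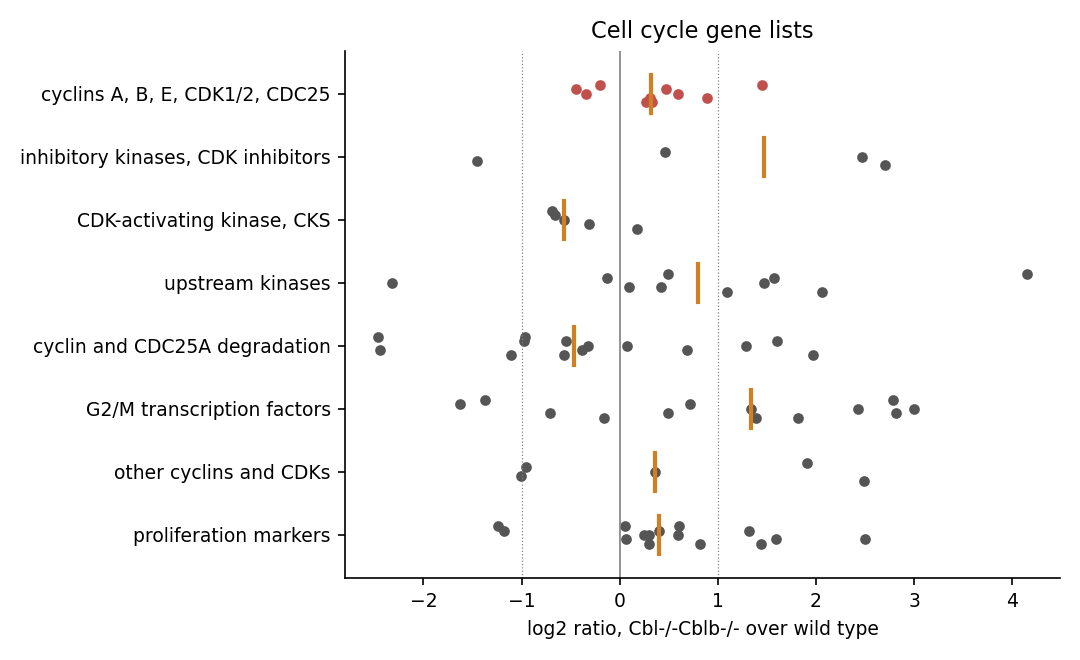
Log2 ratio (Cbl-/-Cblb-/- labelled library over wild type labelled library) of every gene over the floor in 8 cell cycle lists, with the list median as an orange bar and 2-fold as dotted lines. The 10 cyclin, CDK and CDC25 genes (red) span -0.44 to 1.45, while the upstream kinases and regulators of mitotic entry span -2.32 to 4.15.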

How the data were processed

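RNA from the sorted cells was made into Illumina TruSeq libraries and read as pairs of 50 bases, per the labels' protocols. Tools named in the submitters' processing notes are DESeq2 1.4.5, featureCounts and TopHat2 2.0.10, with the build GRCm38 and no role for each. For annotation, strand setting and reads with several matches the answer is: not given in the sources used here. Per the file headers, the deposited signal columns are reads scaled by library size. All values (100%) were whole multiples of 1 step per library within 0.001 read, so whole reads were recovered, with size factors of 1.43066 and 0.698976. With 1 library per group a count test on these reads would have no residual degrees of freedom, hence none was run and 0 genes are called. The FPKM values deposited by the authors were not used beyond the check of units. The deposited log2 fold changes and p-values, and the test score and base mean signal beside them, come from the authors' comparison, per the file headers.

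Log2 ratios were computed from normalized reads plus 1, for genes over a floor of 100 normalized reads in whichever library was higher. Ratios have exact conditional 95% intervals and levels exact Poisson ones. Reads carry no molecular identifiers, so these cover counting error only. The length adjustment is the residual of a straight line of log2 ratio on log2 deposited length over 10443 genes, and eighths are 8 groups of like size by deposited length. Positions and overlaps are from GENCODE M21 (GRCm38), promoters from RefSeq (GRCm38.p6). The text names the 10 genes, Cbl and Cblb, and of 13 further lists up to 3 genes with the largest absolute ratio. Ints8, Exosc9, Gm3550, Spef1, Pmel, Ccnb2-ps, Gm5593, Ccna1 and Ccnb3 are named as neighbours or relatives. Cdc27, Cdc20, Fzr1, Anapc2, Ube2c, Fbxo5, Lin37 and Nfyc were chosen after their values were seen, and 2 libraries give no pattern by which to name similar genes. Members and lists were chosen with earlier results of these data known. The ratios and intervals were checked on simulated counts. Python 3.11.15, numpy 2.4.6, pandas 2.3.3 and scipy 1.17.1 were used.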

Additional observations from a re-analysis of the deposited data

How the results depend on the processing

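The number of the 10 genes at least 2-fold higher in the Cbl-/-Cblb-/- labelled library was 1 at the authors' scaling (27.8% of all genes). It was 3 when scaled to total reads (41.2%) and 2 with the line on length removed (17.9%). With a fold of 1.5 it was 3. With the median of the same eighth by length removed, an alternative added after seeing the data, it was 2. For the fold of 1.5 and the eighth's median the share of all genes was not computed. The number at least 2-fold lower was 0 under each of these settings. Of all genes 23.3% were lower at the authors' scaling and 21.7% with the line on length removed. The median log2 ratio of 0.32 became 0.84 when scaled to total reads, 0.17 when centred on all genes and 0.19 with the line on length removed. It was 0.38 with the eighth's median removed. A pseudocount of 10, a floor of 20 and no floor left the counts as they were. Of the single genes, 3 changed sign when scaled to total reads (Ccnb2, Ccne1 and Cdc25c) and 3 with the line on length removed (Ccnb1, Ccnb2 and Cdc25c). The first change of sign follows from the constant added by the scaling, and the second from the deposited length of each gene. Levels per kb by the principal transcript, also an alternative added after seeing the data, put Ccnb1 above Cdk1 in each library. No paired analysis was possible because each genotype has 1 library, and no library could be left out for the same reason.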
